A study of Mus musculus with 7 samples.

Results

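The genes described here are 30 enzymes and regulators of cholesterol and fatty acid synthesis, taken by gene symbol from a list, and all 30 had a row among the 24421 genes of the count table. They comprise 18 enzymes of sterol synthesis, 8 enzymes of fatty acid synthesis, desaturation and elongation, and 4 genes that regulate these pathways or carry sterol inside cells. They were measured by sequencing of polyadenylated RNA from 7 mouse tumours at week 4 of treatment, each from a separately named mouse. Of these, 4 mice received anti-Lair1, an antibody against a collagen-binding inhibitory receptor of leukocytes, and 3 received anti-KLH as the control antibody. All 7 mice also received anti-PD-1, an antibody to the PD-1 checkpoint receptor found on T cells.

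The series text describes tumour models of more than one kind, and the labels do not say which of them gave these tumours. In one model the lung cancer line 344SQ, derived from mice with K-rasLA1/+ and p53R172H∆g/+ alleles, was injected under the skin of male and female 129/Sv mice obtained at 6 to 8 weeks of age, and doses were 10 mg/kg (anti-LAIR) and 8 mg/kg (anti-PD-1). In the other, KrasLSL-G12D/p53fl/fl mice received an adenovirus carrying Cre through the trachea at 3 to 4 months of age and were treated 2 months later. The names of the anti-Lair1 mice share a prefix that no anti-KLH mouse has, and its meaning is not stated in the labels. Genotype, strain or cohort can therefore not be told apart from the antibody if the prefixes mark them. Library totals ran from 11480651 to 15347403 counts in the anti-Lair1 group and from 9879762 to 26255727 in the anti-KLH group. The 5 epithelial markers Epcam, Krt8, Krt18, Krt19 and Cdh1 were detected in every library, with summed levels of 4278 to 5319 CPM (counts relative to scaled library totals) in the anti-Lair1 group and 4312 to 5110 CPM in the anti-KLH group.

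Cells build cholesterol from acetyl-CoA through mevalonate, squalene and lanosterol, and build fatty acids from the same precursor by chain synthesis followed by desaturation and elongation. The transcription factors encoded by Srebf2 and Srebf1 switch on most of these genes when sterols in the endoplasmic reticulum run low, and Insig proteins hold them back when sterols are plentiful. SREBP proteins act on promoters together with the CCAAT-binding factor NF-Y, so members of the sterol branch are known to be regulated as a unit. Srebf2 is best known for the sterol branch and Srebf1 for the fatty acid branch.

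Promoter sequence was available for 23 of the 30 members as 28 windows reaching from 250 bases before to 50 bases after an annotated start (RefSeq, GRCm38.p6). Fads1, Fdft1, Fdps, Scd1, Scd2, Sqle and Stard4 had no entry. The letters CCAAT, read on both strands, occurred in 14 of the 18 windows of sterol enzymes (77.8%) and in 2 of the 5 windows of fatty acid enzymes (40.0%), compared with 37.4% of all 32851 windows of this length. A core of the sterol response element, TCACNCCAC, occurred in the Hmgcs1 window alone among the 28, and in 1.24% of all windows. The palindrome CACGTG occurred in 4 of the 28, those of Dhcr7, Hsd17b7, Insig1 and Sc5d, and in 7.15% of all windows. These are matches of letters and not shown binding sites. Promoters of 3 sterol enzymes whose levels varied together between tumours, as described below, are printed with that of Fasn, a fatty acid gene whose level did not follow them. They lie at chr13:119690101-119690400 on the plus strand (Hmgcs1), chr13:8885356-8885655 on the plus strand (Idi1), chr8:64733529-64733828 on the minus strand (Msmo1) and chr11:120824498-120824797 on the minus strand (Fasn). Capitals mark CCAAT or its reverse complement and, in Hmgcs1, also the TCACNCCAC match. The Fasn window holds 3 CCAAT matches, of which a pair on opposite strands overlap, and the Hmgcs1, Idi1 and Msmo1 windows hold 4, 2 and 3.
Hmgcs1: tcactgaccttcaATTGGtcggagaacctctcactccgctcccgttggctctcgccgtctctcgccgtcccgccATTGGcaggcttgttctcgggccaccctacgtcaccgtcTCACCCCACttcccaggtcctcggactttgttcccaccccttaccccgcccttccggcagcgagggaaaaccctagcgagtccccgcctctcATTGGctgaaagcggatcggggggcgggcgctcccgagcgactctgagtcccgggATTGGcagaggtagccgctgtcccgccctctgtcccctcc
Idi1: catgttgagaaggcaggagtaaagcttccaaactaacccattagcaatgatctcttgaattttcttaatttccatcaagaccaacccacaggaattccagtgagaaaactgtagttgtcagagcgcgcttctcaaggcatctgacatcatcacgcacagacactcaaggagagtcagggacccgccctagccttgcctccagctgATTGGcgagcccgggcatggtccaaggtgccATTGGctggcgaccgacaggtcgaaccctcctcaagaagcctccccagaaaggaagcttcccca
Msmo1: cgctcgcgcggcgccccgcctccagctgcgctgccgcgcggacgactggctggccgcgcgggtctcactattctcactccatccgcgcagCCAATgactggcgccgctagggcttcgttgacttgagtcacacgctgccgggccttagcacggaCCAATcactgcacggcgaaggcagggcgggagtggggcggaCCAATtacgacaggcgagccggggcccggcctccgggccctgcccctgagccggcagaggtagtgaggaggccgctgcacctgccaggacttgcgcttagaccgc
Fasn: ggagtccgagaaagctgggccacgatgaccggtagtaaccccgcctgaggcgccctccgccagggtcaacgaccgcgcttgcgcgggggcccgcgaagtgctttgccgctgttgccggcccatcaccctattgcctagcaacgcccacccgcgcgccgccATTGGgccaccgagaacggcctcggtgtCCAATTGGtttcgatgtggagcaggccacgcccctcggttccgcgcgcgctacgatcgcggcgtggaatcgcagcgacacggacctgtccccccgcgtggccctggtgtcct

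The comparison asks what blocking LAIR1 adds to PD-1 blockade. None of the 30 lipid synthesis genes differed between the groups in the test. The edgeR quasi-likelihood test, adjusted over all 13545 genes tested, called 0 of the 30 members and 0% of all genes, and adjusted p for members lay between 0.980 and 1.00. At an unadjusted p under 0.05 it gave 0 members, against 5.15% of all genes. DESeq2 called 0 members too, against 0.388% of the genes it tested, and limma-voom called 0 members and 0% of genes. Limma-voom gave 1 member, Scd2, at an unadjusted p under 0.05, and DESeq2 gave 0. Among the other alternatives Ebp passed that unadjusted level in 4, Scd1 in the one with the muscle covariate and Hsd17b7 in the one without anti-KLH replicate 1, and none was called. The groups did not overlap for 1 member, Fads1, against 5.57% of all genes in either direction, 3.06% in the higher direction, as for Fads1, and 2.51% in the lower direction.

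The intervals show how large a difference these 7 libraries leave room for. In 29 of the 30 members the 95% interval of the fold change lay wholly within 2-fold in either direction, against 81.7% of all genes tested, and in 20 members it lay within 1.5-fold, against 62.7%. Scd1 was the exception at 2-fold. The median log2 fold change, anti-Lair1 minus anti-KLH, was -0.08 over the 18 sterol enzymes and -0.015 over the 8 fatty acid enzymes, beside -0.003 over all genes. Of the sterol enzymes 14 had a negative and 4 a positive fold change. Without anti-KLH replicate 3, however, 5 were negative and the median was 0.06, and with the keratinocyte marker level as a covariate 5 were negative and the median was 0.07. Keratinocyte markers summed to 144 CPM in anti-KLH replicate 3 and to at most 35.1 CPM elsewhere. This covariate therefore nearly singles out that library, and the 2 fits are not separate checks. Of the fatty acid enzymes 4 were negative and 4 positive. Signs of single genes were not steady: 9 of the 30 members kept theirs in all 17 alternative analyses, 7 of which left out 1 library each. Because these were bulk samples, fewer cells of a type and less RNA per cell cannot be told apart.

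**Figure D1:**
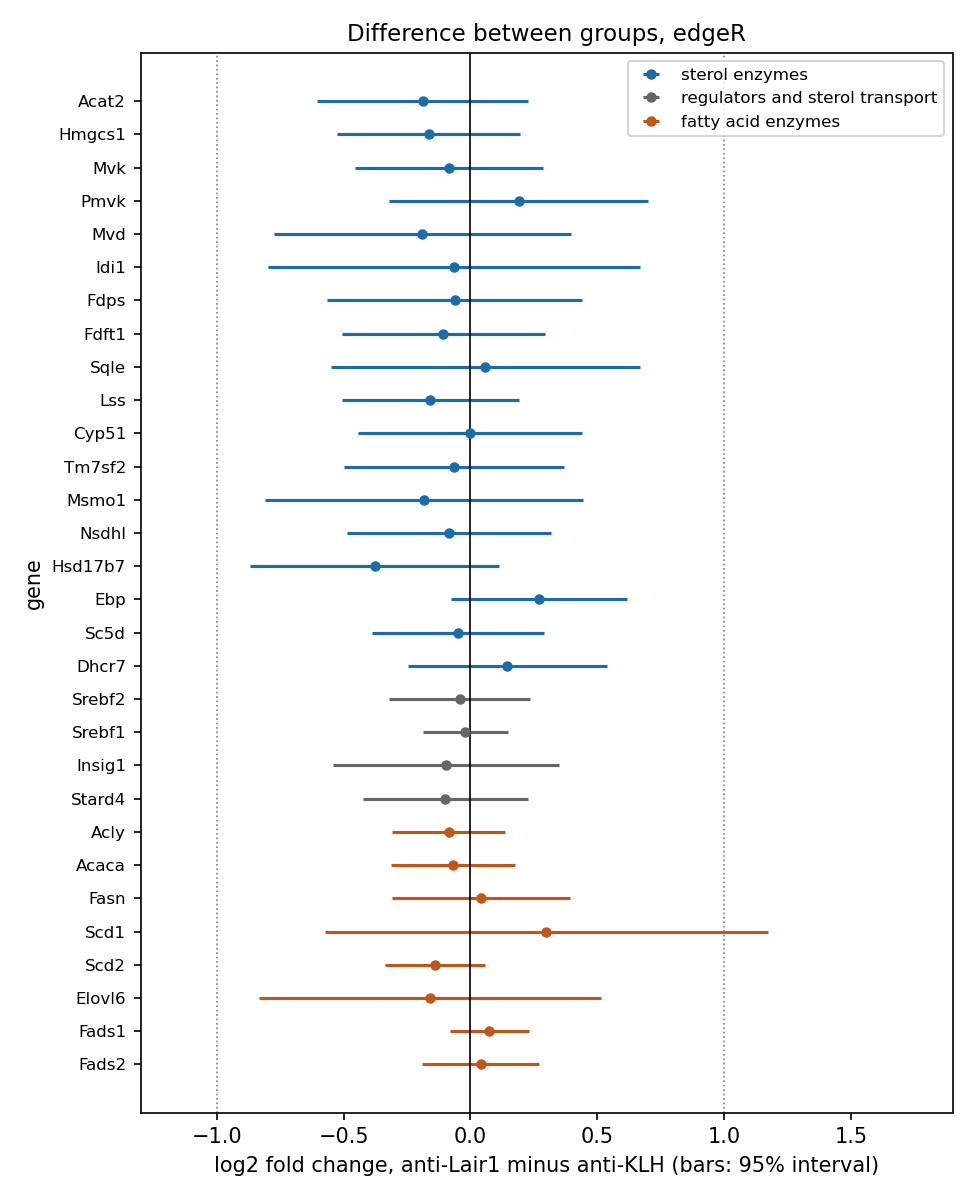
Log2 fold change of each of the 30 genes, anti-Lair1 minus anti-KLH, from the edgeR fit over 13545 genes, with 95% intervals as bars and dotted lines at 2-fold. Every interval includes 0, and the Scd1 interval is the one that passes a dotted line.

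What did vary was the level of the sterol pathway from tumour to tumour, inside each group. The mean over the 18 sterol enzymes of each gene's log2 CPM, taken relative to its mean over all libraries, was -0.15, -0.16, 0.30 and -0.08 in anti-Lair1 replicates 1 to 4, against -0.29, 0.01 and 0.37 in anti-KLH replicates 1 to 3. Each group thus held 1 library that stood high, replicate 3 in both, and the anti-KLH group also held the lowest. The replicate numbers only name mice and pair nothing. These libraries, anti-Lair1 replicate 3 and anti-KLH replicate 3, were the 2 highest of the 7 for 12 of the 18 sterol enzymes, against 7.40% of all genes tested. Lowest for 9 of the 18 was anti-KLH replicate 1, against 15.7% of all genes tested. These libraries were picked by the mean over the same enzymes, so the counts only describe how far its members share the order. Over the 7 libraries the median SD of log2 CPM was 0.27 for sterol enzymes, 0.14 for fatty acid enzymes and 0.20 for all genes tested. The fatty acid enzymes shared the order in part. Their mean deviation was also lowest in anti-KLH replicate 1 (-0.19) and highest in anti-KLH replicate 3 (0.13). In anti-Lair1 replicate 3 it was 0.01, below anti-Lair1 replicates 2 (0.07) and 4 (0.04).

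Some other measures moved in part with this order of libraries. The 5 epithelial markers had mean deviations of 0.01, -0.07, 0.26 and -0.03 in anti-Lair1 replicates 1 to 4, against -0.33, -0.01 and 0.16 in anti-KLH replicates 1 to 3, so that the same libraries were the highest and the same one was the lowest. Their summed level, to which Cdh1 contributed most, did not follow that order and was highest in anti-Lair1 replicate 1, at 5319 CPM. The 6 fibroblast markers also summed highest in replicate 3 of each group, at 2120 CPM (anti-Lair1) and 2026 CPM (anti-KLH), against 1244 to 1833 CPM elsewhere. Their mean deviations there were 0.41 and -0.02, and their sum was lowest in anti-Lair1 replicate 4. The libraries with high sterol genes also had the fewest counts, 11480651 and 9879762, and the lowest had the most, 26255727. The sterol enzymes stood 1.59-fold higher in anti-KLH replicate 3 than in anti-KLH replicate 1 on the deposited counts. After all libraries had been thinned at random to the smallest total, the ratio was 1.63-fold. Random thinning leaves the expected CPM unchanged, so it cannot decide whether differences between libraries that go with depth have a part in this order. That part was not tested. Genes known from epidermal keratinocytes were also high in anti-KLH replicate 3. These 8 markers summed to 144 CPM there, against 25.6 and 35.1 CPM in the other anti-KLH libraries, and to 13.8 to 25.6 CPM in the anti-Lair1 libraries. The 25.6 CPM of anti-Lair1 replicate 3 was the highest sum of its group, but Krt14 made up 22.7 CPM of it. By the mean deviation of the 3 tested keratinocyte markers, that library (-0.20) lay below anti-Lair1 replicate 2 (-0.17). The second highest sum, 35.1 CPM, was in anti-KLH replicate 1, the lowest library for sterol enzymes. The part of epithelial, fibroblast or keratinocyte content in the sterol levels was not tested.

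**Figure D2:**
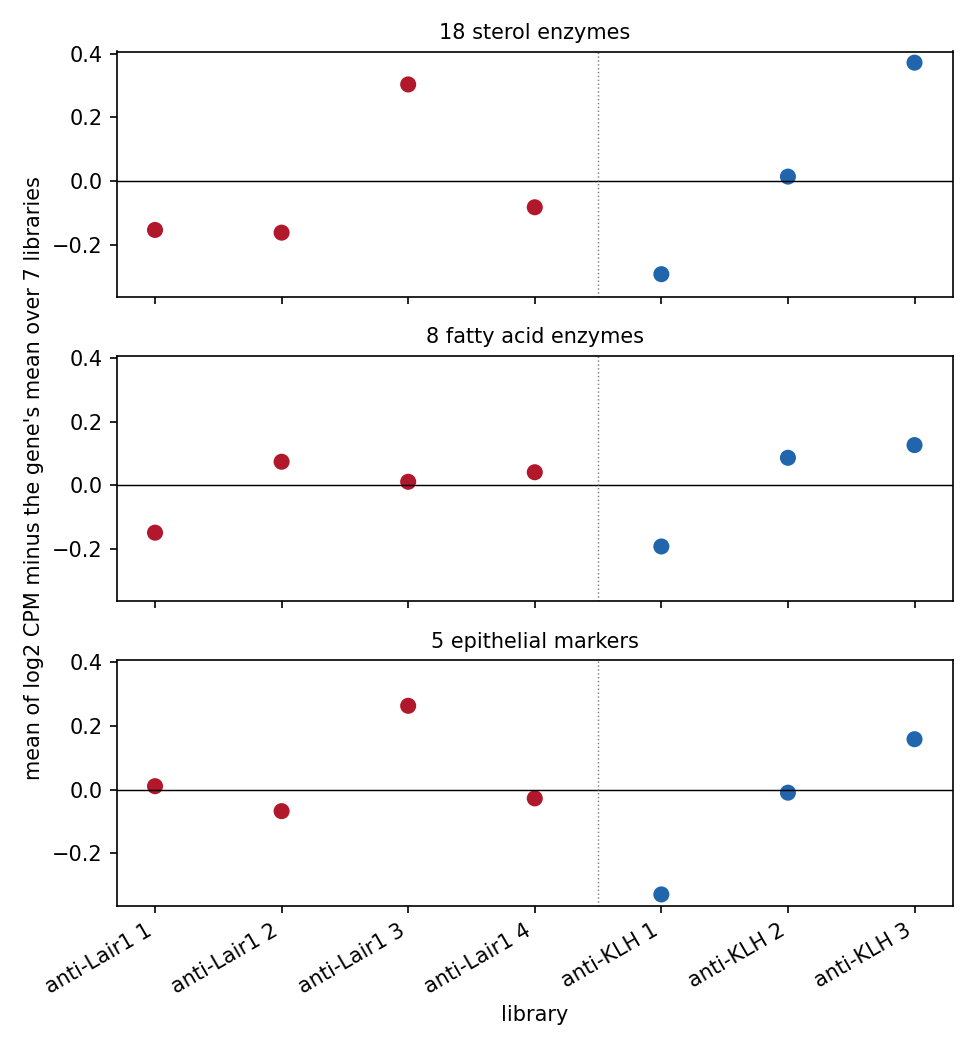
Mean deviation of log2 CPM from each gene's mean over the 7 libraries, for the 18 sterol enzymes, the 8 fatty acid enzymes and the 5 epithelial markers, with anti-Lair1 libraries in red and anti-KLH libraries in blue. Replicate 3 of both groups stands highest for sterol enzymes (0.30 and 0.37) and for epithelial markers (0.26 and 0.16), while fatty acid enzymes lie within a narrower band.

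Among the mevalonate enzymes, Hmgcs1, which makes HMG-CoA from acetoacetyl-CoA, had the smallest p. It stood at 196, 177, 235 and 183 CPM in the anti-Lair1 libraries, against 178, 207 and 280.0 CPM in the anti-KLH libraries. The groups overlapped, with replicate 3 highest in both. The log2 fold change of Hmgcs1 was -0.16 (standard error, SE, 0.16, and 95% interval -0.53 to 0.20). Acat2, the thiolase that supplies acetoacetyl-CoA, stood at 20.1, 19.2, 25.6 and 17.8 CPM with anti-Lair1, against 18.2, 23.3 and 29.6 CPM with anti-KLH, with a log2 fold change of -0.19 (SE 0.19). The kinases and the decarboxylase that follow, Mvk, Pmvk and Mvd, had log2 fold changes of -0.09, 0.19 and -0.19, and Fdps, which makes farnesyl diphosphate, one of -0.06. Idi1, the isomerase that makes the isoprenoid units interchangeable, varied most over the libraries among these 7 genes. Its levels were 11.1, 10.9, 19.8 and 9.81 CPM with anti-Lair1, against 9.07, 11.9 and 19.9 CPM with anti-KLH. The high libraries of the groups were nearly level for Idi1, and its log2 fold change was -0.06 (SE 0.32). Idi1, and Cyp51 and Msmo1 below, are given library by library because their values stood out once seen.

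The squalene enzymes showed the same overlap. Sqle, squalene epoxidase and a rate-limiting step of the pathway, stood at 60.5, 60.9, 95.2 and 76.6 CPM in the anti-Lair1 libraries, against 47.6, 65.1 and 99.4 CPM in the anti-KLH libraries. Its level differed 2.09-fold between the highest and the lowest of the 7 libraries, both of them anti-KLH. The log2 fold change of Sqle was 0.06 (SE 0.26, interval -0.55 to 0.67). Lss, which closes the ring to lanosterol, stood at 49.7, 46.6, 67.0 and 52.3 CPM with anti-Lair1, against 50.7, 57.6 and 72.6 CPM with anti-KLH. Its log2 fold change was -0.16 (SE 0.16), and that of Fdft1, squalene synthase, was -0.11 (SE 0.18). Fdft1 shares 774 bases with Ctsb on the opposite strand, and Tm7sf2, described next, shares 532 bases with Vps51 on the same strand. Cyp51, Srebf1 and Acaca also overlap a gene of the opposite strand (Akap9, Rai1 and Gm11437). Fdps and Mvd overlap genes with no row in the count table. These are Gm43738, over 7512 bases on the same strand as Fdps, and Gm20388, over 9822 bases on the strand opposite to Mvd. These overlaps are of whole gene spans and not of exons. The sources used here do not state whether counting used strand, so counts of Fdft1, Cyp51, Srebf1 and Acaca are less certain. That of Tm7sf2 is less certain with either setting, since its overlap is on the same strand. Whether the annotation used for counting held the genes that overlap Fdps and Mvd is not stated.

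The steps from lanosterol to cholesterol held the 2 members with the smallest p of all 30, with opposite signs. Ebp, a sterol isomerase, stood at 40.8, 31.7, 46.1 and 43.3 CPM in the anti-Lair1 libraries, against 32.5, 28.4 and 39.9 CPM in the anti-KLH libraries. Its log2 fold change was 0.27 (SE 0.16, interval -0.08 to 0.62, unadjusted p = 0.114, edgeR adjusted p = 0.980). It lay between 0.17 and 0.40 with single libraries left out, and 4 of the 17 alternatives gave it an unadjusted p under 0.05 without calling it. With the muscle marker level as a covariate it was -0.03. Muscle markers summed to 119.6, 9.98, 83.2 and 114 CPM in the anti-Lair1 libraries, against 5.07, 8.00 and 8.25 CPM in the anti-KLH libraries. This covariate thus follows the groups except in anti-Lair1 replicate 2, which lay near the anti-KLH level. In the other libraries it can hardly be told apart from the antibody. The fit with it therefore largely sets anti-Lair1 replicate 2 against the anti-KLH libraries. The Ebp groups overlapped, since anti-Lair1 replicate 2 lay below 2 of the anti-KLH libraries. Hsd17b7, a ketosteroid reductase of the same stretch, stood at 29.1, 30.8, 36.1 and 24.6 CPM with anti-Lair1, against 28.9, 34.8 and 54.4 CPM with anti-KLH. Its log2 fold change of -0.38 (SE 0.22, interval -0.87 to 0.11) was -0.08 without anti-KLH replicate 3, the highest of that group, and -0.57 without anti-KLH replicate 1, the lowest. Cyp51, the lanosterol demethylase, and Msmo1, a methylsterol monooxygenase, again had replicate 3 of each group on top. Cyp51 stood at 82.6, 87.1, 114 and 87.3 CPM with anti-Lair1, against 69.0, 87.7 and 123 CPM with anti-KLH, and its log2 fold change was -0.002. Msmo1 stood at 83.4, 88.9, 128 and 84.6 CPM with anti-Lair1, against 73.1, 97.1 and 158 CPM with anti-KLH, with a log2 fold change of -0.18 (SE 0.27). The remaining sterol enzymes, the reductases Tm7sf2 and Dhcr7, the dehydrogenase Nsdhl and the desaturase Sc5d, had log2 fold changes of -0.07, 0.15, -0.09 and -0.05.

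**Figure D3:**
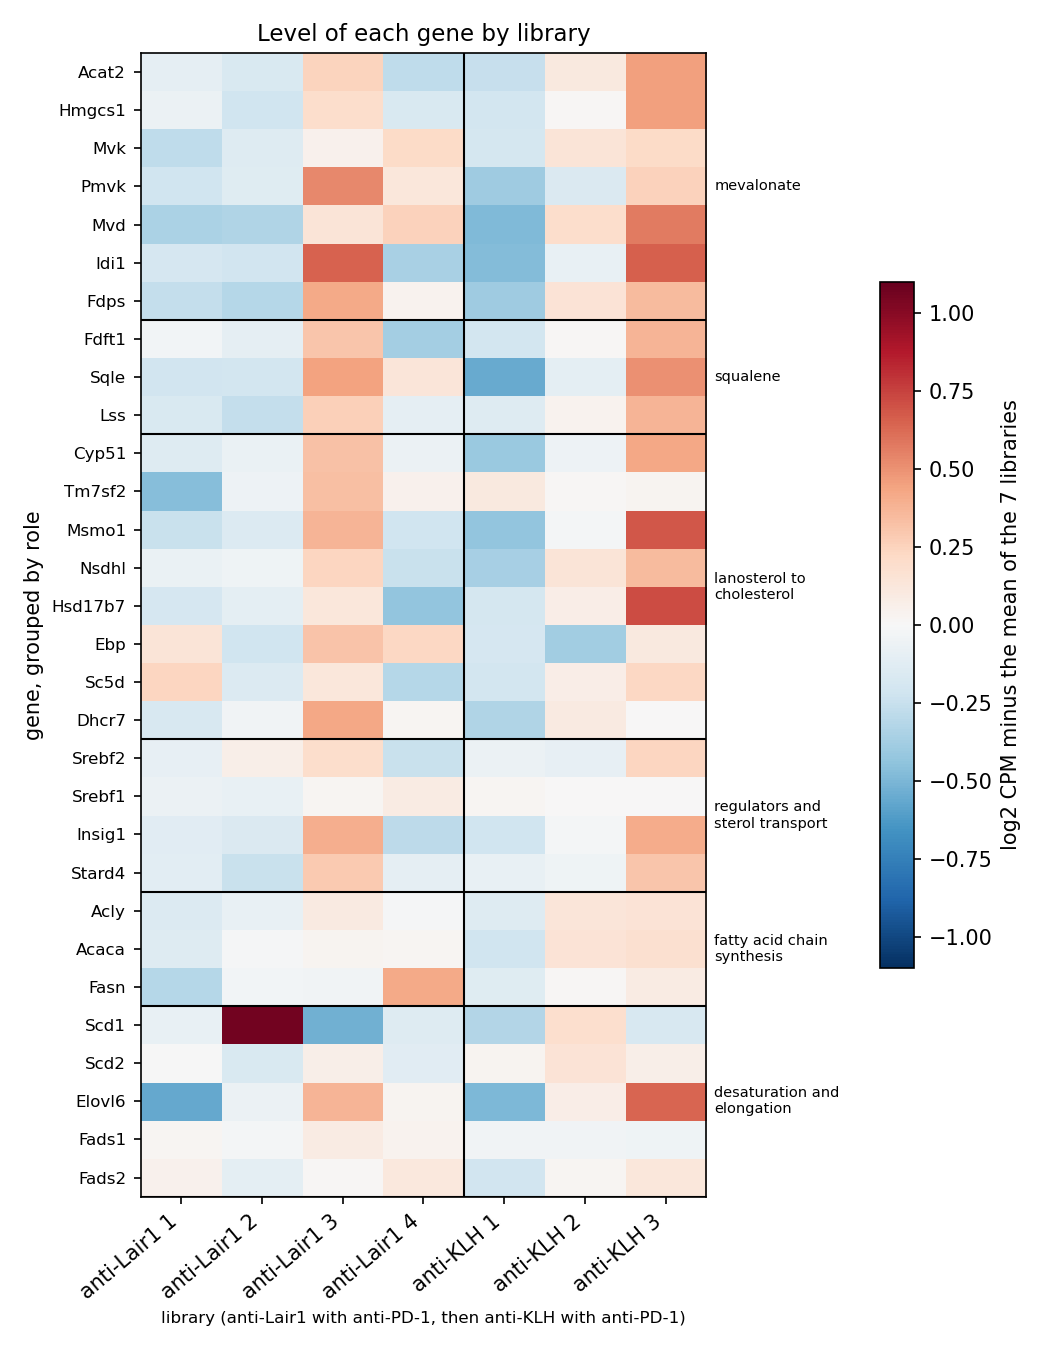
Level of each of the 30 genes in the 7 libraries as log2 CPM minus the gene's mean, anti-Lair1 libraries left of the line and anti-KLH libraries right of it. Replicate 3 of both groups is high for most sterol enzymes and for Insig1, Stard4 and Elovl6. Exceptions include Tm7sf2, Dhcr7 and Ebp in anti-KLH replicate 3, and Mvk and Mvd in anti-Lair1 replicate 3. Srebf1, Scd2 and Fads1 are nearly even, and Scd1 is high in anti-Lair1 replicate 2 alone.

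Of the regulators, Srebf1 was, after Fads1, the steadiest of the 30 genes over the libraries. It stood at 159, 157, 168 and 176 CPM in the anti-Lair1 libraries, against 169, 167 and 166 CPM in the anti-KLH libraries, a 1.12-fold span over all 7. Its log2 fold change was -0.02 (SE 0.07, interval -0.19 to 0.15). Srebf2 stood at 269, 299, 328 and 241 CPM with anti-Lair1, against 273, 268 and 337 CPM with anti-KLH, with a log2 fold change of -0.04 (SE 0.12). Srebf2 was thus highest in replicate 3 of each group, as most sterol enzymes were, but its lowest value was in anti-Lair1 replicate 4 and not in anti-KLH replicate 1. Srebf1 was highest in anti-Lair1 replicate 4. Transcript levels of either gene do not show how much of the protein had been cut free to enter the nucleus. Insig1, which retains the SREBP complex in the endoplasmic reticulum and is itself a target of it, stood at 36.3, 35.6, 52.2 and 32.5 CPM with anti-Lair1, against 34.1, 39.1 and 52.7 CPM with anti-KLH. Stard4, a carrier of cholesterol between membranes, stood at 62.4, 57.2, 82.6 and 63.1 CPM with anti-Lair1, against 63.8, 65.5 and 83.9 CPM with anti-KLH. Both were high in the same libraries as the sterol enzymes, and both had a log2 fold change of -0.10, with SEs of 0.20 and 0.15.

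Of the enzymes that build the fatty acid chain, Acly and Acaca varied little over the libraries and Fasn varied more, over a 1.66-fold span. Acly, which makes cytosolic acetyl-CoA from citrate, stood at 213, 224, 254 and 236 CPM in the anti-Lair1 libraries, against 214, 261 and 263 CPM in the anti-KLH libraries, with a log2 fold change of -0.09 (SE 0.10). Acaca, the acetyl-CoA carboxylase that commits carbon to the pathway, had one of -0.07 (SE 0.11). Acly and Acaca were highest in replicate 3 of each group, Acaca at 94.4 CPM (anti-Lair1) and 105 CPM (anti-KLH). Anti-KLH replicate 2 nevertheless exceeded anti-Lair1 replicate 3 for both genes. Fasn, fatty acid synthase, stood at 474, 579.8, 575 and 787 CPM with anti-Lair1, against 539, 594 and 628 CPM with anti-KLH. Both the highest and the lowest Fasn value belonged to the anti-Lair1 group, and neither was in a library that stood high for sterol enzymes. Its log2 fold change was 0.04 (SE 0.15, interval -0.31 to 0.39).

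The desaturases and the elongase did not share a pattern. Scd2, a stearoyl-CoA desaturase, stood at 1678, 1498, 1757 and 1541 CPM in the anti-Lair1 libraries, against 1719.5, 1873 and 1757 CPM in the anti-KLH libraries. Of the anti-Lair1 libraries only replicate 3 reached the range of the anti-KLH libraries, and the Scd2 log2 fold change was -0.14 (SE 0.09, interval -0.34 to 0.06, unadjusted p = 0.147). Scd1, its paralogue, stood at 429.8, 954, 317 and 413 CPM with anti-Lair1, against 366, 519 and 403 CPM with anti-KLH. A single library, anti-Lair1 replicate 2, set the Scd1 difference: the log2 fold change was 0.30 (SE 0.37, interval -0.57 to 1.17) with it and -0.15 without it. Scd1 and Scd2 lie near each other on chromosome 19, at 44394455 to 44407879 and 44293674 to 44306864 (GRCm38), and reads of such close copies may have been split or dropped. Per kilobase of annotated exon, the mean level of Scd2 was 297 CPM with anti-Lair1 and 327 CPM with anti-KLH, above that of Scd1 at 109 CPM with anti-Lair1 and 88.9 CPM with anti-KLH.

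Scd1 is abundant in fat, and adipocyte genes were high in the library where it was high. The 11 adipocyte markers summed to 167 CPM in anti-Lair1 replicate 2, against 29.1 to 32.2 CPM in the other anti-Lair1 libraries and 23.7 to 44.2 CPM in the anti-KLH libraries. Cfd, the secreted protease adipsin, was at 46.2 CPM in that library and at no more than 8.75 CPM in any other, and Adipoq, which encodes adiponectin, was at 5.45 CPM and no more than 1.42 CPM. The 11 markers did not all share an order. Cidea, at no more than 0.345 CPM, was highest in anti-Lair1 replicate 3 and stood at 0.200 CPM in replicate 2. Among the others, anti-KLH replicate 2, the second highest for Scd1, was second for Cfd and Adipoq. However, anti-Lair1 replicate 4 was second for Cidec and anti-Lair1 replicate 1 for Lipe. With the adipocyte marker level as a covariate the Scd1 log2 fold change was 0.06, and with the muscle marker level it was 0.97. The muscle level follows the groups except in anti-Lair1 replicate 2. The 0.97 therefore rests largely on that library, where Scd1 was high, and is not a separate check. Scd1 was called in neither fit, though the one with the muscle level gave an unadjusted edgeR p under 0.05. The part of fat content in the Scd1 level was not tested. Of the adipocyte markers 3 stayed under 1 CPM in every library. Sebocyte markers, from the other lipid-making cell of skin, summed to 1.47 to 5.67 CPM with anti-Lair1 and 3.22 to 8.75 CPM with anti-KLH. Of these 7 markers 4 stayed under 1 CPM in every library, 1 of them at 0 throughout. Krt79 alone made up 6.62 of the 8.75 CPM, in anti-KLH replicate 3.

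**Figure D4:**
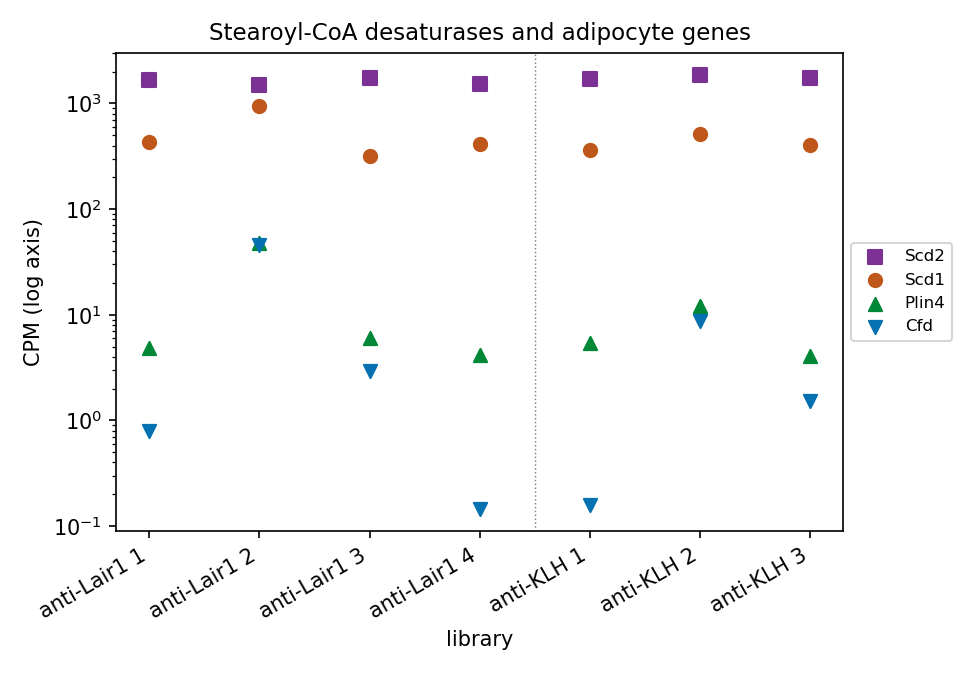
CPM of Scd2, Scd1 and the adipocyte genes Plin4 and Cfd in each library on a log axis, anti-Lair1 libraries left of the dotted line and anti-KLH libraries right of it. Scd1 (954 CPM), Plin4 (47.6 CPM) and Cfd (46.2 CPM) peak in anti-Lair1 replicate 2, where Scd2 has its lowest value (1498 CPM).

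Elovl6, which lengthens saturated and monounsaturated chains, was high in the same libraries as the sterol enzymes. It stood at 36.9, 52.1, 70.2 and 55.4 CPM in the anti-Lair1 libraries, against 38.5, 57.2 and 84.9 CPM in the anti-KLH libraries. Replicate 3 of each group was highest, and the log2 fold change was -0.16 (SE 0.29). Fads1 and Fads2 encode desaturases for polyunsaturated chains and are neighbours on chromosome 19. Fads1 stood at 169.7, 165, 177 and 171 CPM with anti-Lair1, against 162, 163 and 161 CPM with anti-KLH. The Fads1 groups did not overlap, but the gap was small, with a log2 fold change of 0.07 (SE 0.07, interval -0.08 to 0.23, edgeR adjusted p = 1.00). Fads2 had a log2 fold change of 0.04 (SE 0.10).

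Genes around the pathway were read from 5 further lists, and edgeR called 0 genes in each. Of 18 tested genes of SREBP processing, sterol uptake and related steps, 8 had a positive and 10 a negative fold change. Lipa, the lysosomal acid lipase, stood at 126, 97.2, 97.1 and 113 CPM in the anti-Lair1 libraries, against 101, 88.5 and 75.7 CPM in the anti-KLH libraries, which overlapped, and its log2 fold change was 0.29 (SE 0.13). Mbtps1, a protease that cuts SREBP proteins in the Golgi, had one of -0.16 (SE 0.08). Of 21 tested further genes of fatty acid synthesis and storage 12 were positive, and the smallest p belonged to Me1, malic enzyme, a source of NADPH, at 310.4, 238, 224 and 293 CPM in the anti-Lair1 libraries, against 211, 232 and 193 CPM in the anti-KLH libraries. The Me1 groups overlapped (log2 fold change 0.33, SE 0.13, edgeR adjusted p = 0.937), and Elovl7, an elongase of very long chains, had a log2 fold change of 0.19 (SE 0.11).

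The list of liver X receptor (LXR) targets and oxysterol enzymes, the arm that answers sterol excess, had the highest median of the 5, with 9 of 12 tested genes positive and a median log2 fold change of 0.23. Groups did not overlap, in the higher direction, for 4 of the 12, against 3.06% of all genes, and 2 of the 12 had an unadjusted p under 0.05, against 5.15%. Cyp7b1, an oxysterol hydroxylase, stood at 1.98, 2.19, 3.11 and 2.62 CPM in the anti-Lair1 libraries, against 1.78, 1.27 and 1.22 CPM in the anti-KLH libraries. Pltp, a phospholipid transfer protein, stood at 9.28, 10.3, 8.63 and 12.6 CPM with anti-Lair1, against 8.08, 7.93 and 6.82 CPM with anti-KLH. Their log2 fold changes were 0.76 (SE 0.32) and 0.42 (SE 0.18), with edgeR adjusted p of 0.947 and 0.954. Macrophages express many LXR targets. The 8 macrophage markers summed to 307 to 413 CPM with anti-Lair1 and 244 to 286 CPM with anti-KLH, with no overlap. Taken singly, 2 of the 8, Csf1r and Adgre1, did not overlap in the higher direction, against 3.06% of all genes. Mrc1, the marker with the highest mean level, overlapped, at 104 to 193 CPM with anti-Lair1 and 48.9 to 127 CPM with anti-KLH. The part of macrophage content in the LXR list was not tested. Of 15 tested fatty acid oxidation genes 8 were positive with a median of 0.05, and the mitochondrial trifunctional protein subunits Hadhb and Hadha had log2 fold changes of 0.22 (SE 0.12) and 0.13 (SE 0.09). Of 10 fatty acid uptake genes 9 were positive with a median of 0.15. Cd36, a fatty acid receptor of adipocytes and macrophages, stood at 6.06, 22.0, 5.53 and 6.68 CPM with anti-Lair1, against 2.53, 5.69 and 4.28 CPM with anti-KLH, its high value again in anti-Lair1 replicate 2. Plin2, which coats lipid droplets, had a log2 fold change of 0.11 (SE 0.08).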

How the data were processed

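Total RNA from tumours was purified with Trizol and columns, and directional libraries of polyadenylated RNA were read as single ends, per the labels' protocols. The table that the authors deposited holds raw read counts by gene symbol, in a column for each mouse. The submitters' processing notes name Trim Galore, STAR 2.7.6, featureCounts 2.0.1, edgeR 3.40.1 and mm10. Annotation, strand setting and handling of multiply mapped reads are not given in these sources.

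The deposited counts were fitted by edgeR 4.0.16 (R 4.3.3): filterByExpr at a minimum count of 10 kept 13545 of 24421 genes, and TMM scaling and the robust quasi-likelihood test of all 7 libraries followed, with no covariate. P-values were adjusted by Benjamini-Hochberg over all genes tested, at a threshold of 0.05. CPM is the deposited count over the TMM-scaled total, and 3 counts were worth 0.119 to 0.305 CPM, counting error only. Log2 CPM used a prior count of 2. SEs and 95% intervals of fold changes were derived from the test statistic. DESeq2 1.42.0 and limma 3.58.1 were alternatives. The fits were tested on simulated data. Exon length came from GENCODE M21, basic set (GRCm38, the assembly mm10 names), coordinates of Scd1 and Scd2 too. The labels call each library a separate mouse. Figures used matplotlib 3.10.9.

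Members and lists were chosen with earlier results of these data known. Library values are given for the member with the smallest p in each role, the 8 smallest of all, and Srebf1, Srebf2, Insig1, Hmgcs1, Sqle, Fasn and Scd1. In each further list the 2 genes with the smallest p are named. Any further gene was picked with its values in view.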

Additional observations from a re-analysis of the deposited data

Results flagged for a closer look

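Outlying values were looked for in the 4 anti-Lair1 libraries, for the 30 members and the 10 genes named from further lists, by the gap between an extreme value and its neighbour as a share of the range. Shares above Dixon's 95% critical value for 4 samples were singled out, which chance gives in about 1 group in 20. That value was exceeded for 4 of the 40 genes. Idi1 (0.874), Msmo1 (0.874) and Cyp51 (0.853) were each high in anti-Lair1 replicate 3, at 19.8, 128 and 114 CPM. These 3 sterol enzymes vary together, so their flags are not independent, and each was at least as high in anti-KLH replicate 3. Cd36 (0.930) was high in anti-Lair1 replicate 2, at 22.0 CPM, the library in which adipocyte markers summed to 167 CPM.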

How the results depend on the processing

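No member passed an adjusted p of 0.05 in any of the 17 alternatives, the lowest adjusted p being 0.685 (Scd2, limma-voom). Over all genes edgeR called 0, between 0 and 3 with single libraries left out (Neb, Ttn and Acta1, without anti-Lair1 replicate 2), 1 with the adipocyte covariate (Xirp2), and DESeq2 called 54, for which the cause was not tested. The 4 genes named are muscle genes, chosen after their values were seen. The sterol median lay between -0.25 (without anti-KLH replicate 1) and 0.06 (without anti-KLH replicate 3) with libraries left out and between -0.19 (muscle covariate) and 0.07 (keratinocyte covariate) otherwise. The fatty acid median lay between -0.11 and 0.08 with libraries left out, and between -0.08 and 0.08 otherwise. Of the 30 members 9 kept their sign in every alternative.

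Log2 fold changes that turned sign were, with the keratinocyte covariate, Hmgcs1 0.035, Mvd 0.070, Idi1 0.30, Fdps 0.098, Fdft1 0.058, Cyp51 0.25, Msmo1 0.18, Nsdhl 0.070, Sc5d 0.039, Srebf2 0.073, Insig1 0.096, Stard4 0.032, Acaca 0.0052, Elovl6 0.18. The keratinocyte covariate nearly singles out anti-KLH replicate 3, so these turns are not separate from those found by leaving that library out. The fit with the muscle covariate rests largely on anti-Lair1 replicate 2, whose muscle level lay near that of the anti-KLH libraries. With the muscle covariate the fold changes that turned sign were Sqle -0.17, Ebp -0.026, Srebf2 0.044, Fasn -0.037, Fads2 -0.089. With limma-voom they were Idi1 0.025, Cyp51 0.025, Srebf2 0.042, Fasn -0.039, Fads2 -0.021, with library totals Cyp51 0.024, Srebf1 0.010, and with thinned counts Tm7sf2 0.089. With libraries left out one at a time, those that turned sign ranged as follows: Hmgcs1 -0.30 to 0.035, Mvd -0.45 to 0.064, Idi1 -0.34 to 0.30, Fdps -0.26 to 0.093, Fdft1 -0.24 to 0.057, Sqle -0.17 to 0.38, Cyp51 -0.19 to 0.24, Tm7sf2 -0.20 to 0.065, Msmo1 -0.41 to 0.17, Nsdhl -0.27 to 0.066, Sc5d -0.16 to 0.046, Srebf2 -0.12 to 0.068, Srebf1 -0.056 to 0.0043, Insig1 -0.27 to 0.093, Stard4 -0.22 to 0.032, Fasn -0.12 to 0.14, Scd1 -0.15 to 0.48, Elovl6 -0.41 to 0.16, Fads2 -0.056 to 0.11. No paired analysis was possible because replicate numbers follow accession order and pair no mice.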
